A study of Ovis aries with 9 samples.

Results

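LINC2820, LINC8770, LINC7077 and LINC2370 are long non-coding RNA (lncRNA) transcripts that were assembled from ovine granulosa cell libraries and whose level separated glucose groups. They were picked because, in an earlier analysis of the same libraries, they were the lncRNA transcripts that passed the threshold between the low glucose group (LOW) and the control (CON). Their values between groups are therefore given below as a description, without a test. The description was widened to every transcript of the same 4 assembled loci (XLOC_077652, XLOC_230277, XLOC_191610 and XLOC_065394), 23 transcripts in all of 60784, and to the 3 named genes whose span lies within 100 kb of a chosen transcript. LINC2820 was low in the control and high in both glucose groups. LINC8770 was listed above 0 only in the control libraries, and LINC7077 and LINC2370 were high only in the low glucose group. At XLOC_077652 the total of the locus, which includes LINC2820, was higher in every library with glucose. Without LINC2820, the sum of its other transcripts was above the control in the low glucose group but overlapped it in the high glucose group. In the low glucose libraries LOW_2 and LOW_3 most of that sum was LINC2821 or LINC2819, which were listed at 0 in every control library. That sum did not pass in any comparison. At the other loci the total of the LOW group overlapped that of the control, while the part of it given to the chosen transcript differed.

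LncRNAs are RNA molecules without a long open reading frame, and many are spliced and polyadenylated like mRNA. Some act on genes close to where they are made, others bind proteins or microRNAs elsewhere in the cell, and for most no function is known. Intergenic lncRNAs lie between annotated genes. When a transcriptome is assembled from short reads, overlapping models that share exons are joined into 1 locus, and the reads that fall on a shared exon have to be divided among the models by the software. A transcript level is then partly a statement about that division, whereas the sum over a locus depends on it less.

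Granulosa cells surround the oocyte and supply it with hormones and metabolites. Those studied here came from small follicles of young adult thin-tailed Han ewes, pooled from many ovaries. Whether the libraries of a group were cultures of 1 common cell pool is not stated, so the spread between them may be partly technical. All cultures, the control included, were first kept for 8 h without glucose and serum and then for 24 h at 0 mM (CON), 8.4 mM (LOW) or 33.6 mM glucose (HIGH, the high glucose group), with 3 libraries a group. The highest dose lies well above the glucose of follicular fluid.

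Levels were deposited as FPKM, fragments scaled to transcript length and to the size of the library. The number of reads behind a value is unknown, because the accompanying read count table was a multiple of FPKM and transcript span, at 48.0 to 71.3 per FPKM and kilobase in the 9 libraries for assembled and named features. For Ensembl genes without a symbol, none of which is described here, the factor was 5.36 to 9.14. TXNIP and ARRDC4, arrestin family genes that glucose is known to raise, had higher FPKM in every LOW and HIGH library than in every CON library, at 180 to 218 against 76.2 to 103 for TXNIP. Of 15 granulosa cell markers 11 were in the table and 7 of these reached an FPKM of 1 in all libraries, among them INHA, FST and NR5A2, while the FSH receptor gene FSHR lay between 0.218 and 0.564. FOXL2, CYP19A1, AMH and INHBB were not analysed here. The endothelial markers PECAM1, VWF and CDH5 and the theca marker INSL3 stayed below 0.1. The theca marker LHCGR was not analysed here. The other markers of these cells were detected, with TEK of the endothelium at 0.519 to 1.09. Of the theca list, CYP17A1 was at 0.131 to 0.412 and PTCH1 at 1.40 to 2.98. The summed FPKM of 8 markers of fibroblasts, stroma and smooth muscle lay between 4938 and 6397 in the CON libraries, between 5130 and 5424 in the LOW libraries and between 4206 and 5496 in the HIGH libraries, so the groups overlapped. This sum is mostly LUM, TAGLN and ACTA2. Of the less abundant members, COL1A1 was 37.1 to 127 in HIGH, above every CON and LOW library. Every other member overlapped between HIGH and CON. COL1A2 was at 172 to 324 in HIGH against 104 to 188 in CON, and TAGLN at 926 to 2024 against 1507 to 2771. The summed granulosa cell markers reached at least 75.3 in every CON library, above the LOW libraries, at 59.4 to 71.2, and the HIGH libraries, of which the lowest had 56.7, and the summed markers of luteinising cells were likewise highest in CON, at 208 to 226 against 176 to 190 and 161 to 189. Those of leukocytes lay at 18.6 or above in the CON libraries and at 18.4 or below in all others. The part of these differences in the results below was not tested. In such bulk RNA, fewer cells of a type and less RNA per cell cannot be told apart.

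The loci differ in how they are built. XLOC_077652 lies on chromosome 17 from 17003415 to 17018282, in coordinates whose genome build is not given in the sources used here, and its 5 transcripts (LINC2819 to LINC2823) have the same first and last base, so they differ inside the span. XLOC_230277 lies on the unplaced scaffold JH923431.1, where LINC8770 runs from base 26 to 2898, and the shorter LINC8771 and LINC8772 start further in, at 123 and 1111, and stop at the same base. In XLOC_191610 on chromosome 6, LINC7077 spans 49932474 to 49944917 and is 1 of 13 transcripts. It shares its last base with LINC7075, and it lies inside the span of LINC7076, which runs on to 49975687. XLOC_065394 on chromosome 15 holds LINC2369 and LINC2370, which share their first base, 22904262, and stop at 22994577 and 23012711. Spans here include introns. LINC2370 spanned 108450 bases and LINC8770 2873, against a median of 5706 over all 9428 intergenic lncRNA transcripts. Of the 7588 assembled loci with an intergenic lncRNA, 83.9% held 1 transcript, 2.32% held 5 or more and 0.448% held at least as many as XLOC_191610. All the transcripts of the 4 loci were classed by the authors as intergenic lncRNA, except TCONS_00250221 and TCONS_00250238 of XLOC_191610, which are not among the lncRNAs.

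**Figure D1:**
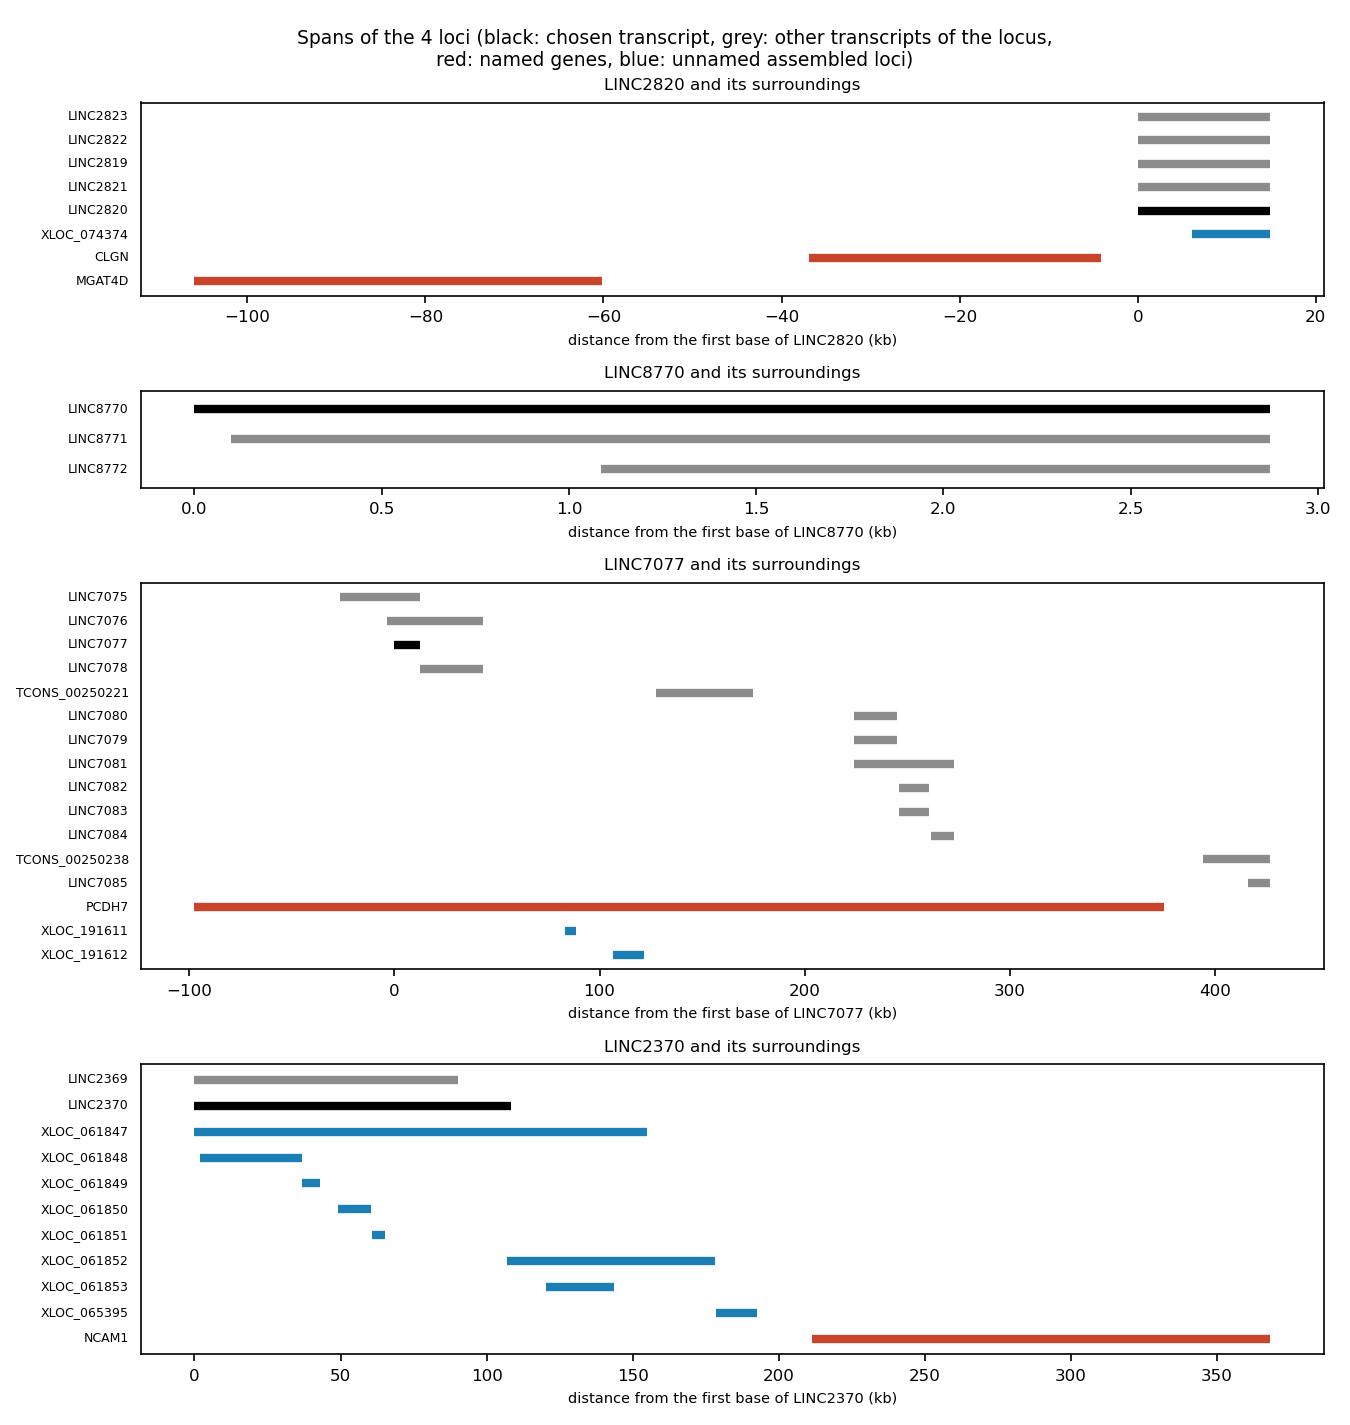
Spans of the transcripts of the 4 loci and of nearby genes, with the distance in kb from the first base of the chosen transcript on the x axis. LINC2820 shares its whole span with the other transcripts of its locus, LINC8770 shares its end, LINC2370 its start, and LINC7077 lies inside PCDH7, whose span here includes the antisense transcripts assigned to it.

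LINC2820 (TCONS_00102104) was read at low level without glucose and at a similar, higher level at both doses. Its FPKM was 0.160, 0.274 and 0.536 in CON_1 to CON_3. It was 4.56, 2.68 and 4.87 in LOW and 4.39, 5.97 and 5.84 in HIGH. No LOW or HIGH library overlapped CON, whereas LOW and HIGH overlapped each other. The mean was 0.323 ± 0.193 in CON, 4.04 ± 1.18 in LOW and 5.40 ± 0.876 in HIGH (SD, n = 3), a ratio of 12.5 for LOW and 16.7 for HIGH over CON. LINC2820 was listed above 0 in all 9 libraries, unlike the other chosen transcripts.

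The total of XLOC_077652 contains LINC2820 and is therefore likewise only a description. It was higher in every library with glucose than in CON, and overlapped between LOW and HIGH. It was 1.32, 1.47 and 1.04 in CON, 7.41, 7.98 and 7.30 in LOW, and 6.18, 7.01 and 8.62 in HIGH. In LOW the coefficient of variation of the total was 4.87%, against 29.3% for LINC2820 alone, whereas in HIGH they were close, at 17.0% and 16.2%. The mean total was 5.93 times that of CON in LOW and 5.70 times in HIGH. The share of LINC2820 in the total did not separate LOW from CON, since it was 12.1%, 18.7% and 51.6% in CON and 61.5%, 33.6% and 66.7% in LOW. In HIGH it was 71.0%, 85.2% and 67.8%, above every CON library. The library with the lowest LINC2820 among those with glucose, LOW_2, was also the only library in which LINC2821 was listed, at 4.78. LINC2819 appeared only in LOW_3 at 1.67 and in HIGH_1 at 0.867, and neither transcript had enough libraries to be tested.

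LINC2822 and LINC2823, the remaining transcripts of XLOC_077652, were found in all groups. LINC2823 was listed at 0.813, 0 and 0.231 in CON, 1.58, 0 and 0.138 in LOW, and 0.290, 1.04 and 1.61 in HIGH. LINC2822 was listed at 0.348, 1.19 and 0.272 in CON, 1.27, 0.522 and 0.616 in LOW, and 0.634, 0 and 1.16 in HIGH. For both, the ranges overlapped in every comparison. Taken without LINC2820, the other transcripts of the locus summed to 1.16, 1.19 and 0.503 in CON, 2.85, 5.30 and 2.43 in LOW, and 1.79, 1.04 and 2.77 in HIGH. Every LOW library was above every CON library, and HIGH overlapped both. In LOW_2 most of the sum was LINC2821 (4.78) and in LOW_3 most was LINC2819 (1.67), both listed at 0 in every CON library. The separation of the sum from CON rests on these models, since LINC2822 and LINC2823 overlapped between LOW and CON. The difference of LOW to CON was 1.87 ± 0.44 (log2, SE), with an unadjusted p of 0.00215 and an adjusted p of 1 in limma over 23394 genes, so it did not pass. HIGH differed from CON by 0.91 ± 0.44 and from LOW by -0.96 ± 0.44, with unadjusted p of 0.0696 and 0.0584. These sums are not independent of LINC2820, because a read given to one transcript of a locus is not given to another.

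**Figure D2:**
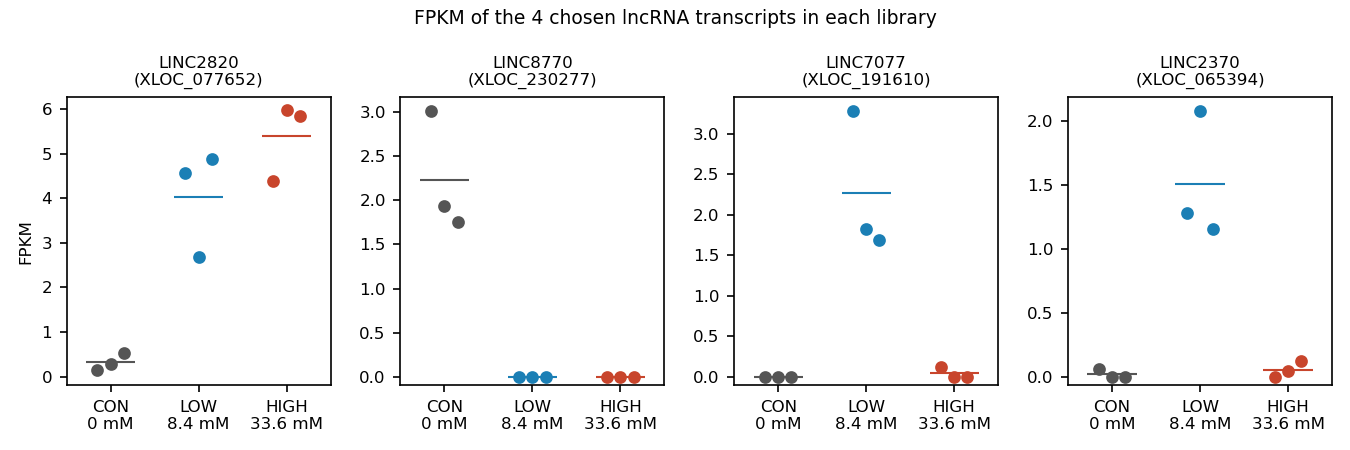
FPKM (y axis, linear) of the 4 chosen transcripts in each library (points) by glucose group (x axis), with the group mean as a line. LINC2820 is above 2.6 in all LOW and HIGH libraries and below 0.6 in CON, LINC8770 is listed at 0 in all LOW and HIGH libraries, and LINC7077 and LINC2370 exceed 1 in the LOW libraries alone.

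LINC8770 (TCONS_00297753) was the longest model of XLOC_230277 and the only chosen transcript listed above 0 without glucose and at 0 with it. Its FPKM was 3.02, 1.93 and 1.76 in CON, and it was listed at 0 in all 3 LOW and all 3 HIGH libraries. In CON it made up 44.2%, 39.6% and 42.3% of the locus, a narrow range. The locus itself was read in every library. Its total was 6.82, 4.88 and 4.16 in CON, 3.47, 3.85 and 4.32 in LOW, and 3.86, 4.03 and 1.02 in HIGH. CON overlapped LOW, since CON_3 was below LOW_3, whereas CON_3 was above each HIGH library, so that CON and HIGH did not overlap. The mean total was 5.29 ± 1.38 in CON, 3.88 ± 0.424 in LOW and 2.97 ± 1.69 in HIGH (SD, n = 3).

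LINC8772, which lacks the first part of LINC8770, held the larger part of what remained. Its FPKM was 2.94, 2.49 and 1.92 in CON, 2.94, 2.62 and 2.96 in LOW, and 3.42, 3.36 and 0 in HIGH. LINC8771, which starts shortly inside LINC8770, was at 0.861, 0.451 and 0.481 in CON, 0.534, 1.24 and 1.35 in LOW, and 0.442, 0.663 and 1.02 in HIGH. Neither separated any groups, and the low total of HIGH_3 was that of LINC8772, which was listed at 0 in that library alone. Together LINC8771 and LINC8772 differed by 0.45 ± 0.43 in LOW against CON and by -0.21 ± 0.43 in HIGH against CON (log2, SE), with 95% confidence intervals of -0.51 to 1.40 and -1.17 to 0.75. A difference of up to that size in the rest of the locus could thus not be told from none.

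LINC7077 (TCONS_00250217) was read in the LOW group and almost nowhere else. It was listed at 0 in the 3 CON libraries. Its FPKM was 3.29, 1.82 and 1.69 in LOW but 0.121, 0 and 0 in HIGH. It was a small part of a large locus, at 11.2%, 7.46% and 6.93% of the total of XLOC_191610 in LOW. That total was 42.6, 25.4 and 8.26 in CON, 29.3, 24.4 and 24.4 in LOW, and 38.5, 32.8 and 26.2 in HIGH. The CON libraries alone spanned the range of both other groups, with a coefficient of variation of 67.5% against 10.9% in LOW and 18.9% in HIGH. Without LINC7077 the rest of the locus differed by 0.28 ± 0.45 between LOW and CON, by 0.65 ± 0.45 between HIGH and CON and by 0.37 ± 0.45 between HIGH and LOW (log2, SE), with unadjusted p of 0.548, 0.182 and 0.433.

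The transcripts that overlap LINC7077 gave different profiles. LINC7076, whose span contains that of LINC7077, was also listed at 0 in the CON libraries. Its FPKM was 1.34, 0.375 and 1.64 in LOW, and 0.503, 4.42 and 3.00 in HIGH. Unlike LINC7077, it was thus present at the higher dose as well. Its unadjusted p in limma was 0.00150 for LOW and 0.000324 for HIGH against CON. The adjusted p values over 38384 transcripts were 0.754 and 0.249. LINC7076 met the filter for testing only through LOW and HIGH libraries, where it was high. These p values are therefore no support for a difference from CON. No fold is given, because all the CON libraries were at 0. LINC7075, which ends at the same base as LINC7077, was at 7.91, 5.77 and 1.93 in CON, 5.56, 4.36 and 1.49 in LOW, and 7.47, 6.82 and 5.50 in HIGH. LINC7078, which starts just beyond the end of LINC7077, was at 6.94, 3.67 and 1.14 in CON, 0.713, 2.70 and 2.31 in LOW, and 5.43, 0.857 and 0.887 in HIGH. Neither LINC7075 nor LINC7078 separated groups, and both were highest in CON_1.

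Further along XLOC_191610, LINC7079, LINC7080 and LINC7081 start at the same base, 50156610, away from LINC7077. LINC7081 was at 2.44, 2.48 and 0.767 in CON, 0.333, 0.459 and 0.435 in LOW, and 1.47, 1.37 and 1.03 in HIGH. Its LOW libraries lay below all the others, and it was thus lowest where LINC7077 was highest. The difference was -1.72 ± 0.41 for LOW against CON and 1.40 ± 0.41 for HIGH against LOW (log2, SE), with unadjusted p of 0.00248 and 0.00795 and adjusted p of 0.983 and 0.657 in limma. LINC7079 was at 2.70, 2.25 and 0.994 in CON, 3.32, 2.73 and 4.25 in LOW, and 2.90, 2.21 and 3.32 in HIGH. LOW was above CON by 0.96 ± 0.35 (unadjusted p = 0.0252, adjusted p = 1), although LOW_2 exceeded CON_1 only slightly. LINC7080, at 0 to 2.24, overlapped in every comparison.

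LINC7084 was at 3.19, 0.0126 and 0.00387 in CON, so that a single control library had the level of the other groups, which was 0.700, 2.83 and 2.75 in LOW, and 4.31, 3.78 and 2.13 in HIGH. Its difference of HIGH to CON was 3.37 ± 1.20 (log2, SE), with an unadjusted p of 0.0214 and an adjusted p of 0.759. The value depended on the control library kept, at 4.95 without CON_1 (adjusted p = 0.0702), 2.60 without CON_2 and 2.53 without CON_3. CON_1 lay above HIGH_3, and the groups overlapped. The remaining tested members, LINC7082, LINC7083, TCONS_00250221 and TCONS_00250238, overlapped in every comparison. TCONS_00250221 was the most abundant of the locus in 8 of 9 libraries, at 10.1, 6.50 and 1.90 in CON, 7.92, 5.58 and 6.15 in LOW, and 8.76, 7.65 and 6.02 in HIGH. LINC7085 was listed only in LOW_1 at 0.0972 and LOW_2 at 0.107 and was not tested.

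LINC2370 (TCONS_00086635) was also a LOW transcript. Its FPKM was 0.0565, 0 and 0 in CON, 1.28, 2.08 and 1.16 in LOW, and 0, 0.0440 and 0.123 in HIGH. Its locus XLOC_065394 did not separate the groups, with a total of 2.69, 1.46 and 2.04 in CON, 2.31, 2.40 and 3.87 in LOW, and 1.73, 2.49 and 4.01 in HIGH. LINC2370 held 55.2%, 86.6% and 29.9% of that total in LOW and no more than 3.06% in any other library. LINC2369, the other transcript, was at 2.64, 1.46 and 2.04 in CON, 1.03, 0.320 and 2.72 in LOW, and 1.73, 2.45 and 3.89 in HIGH. It was lowest in LOW_2, where LINC2370 was highest, but LOW_3 exceeded all CON libraries. LINC2369 differed by -0.82 ± 0.63 in LOW against CON and by 1.22 ± 0.63 in HIGH against LOW (log2, SE), with unadjusted p of 0.228 and 0.0869 and adjusted p of 1 and 0.743. These differences were -0.12 and 0.52 without LOW_2, and -1.51 and 1.91 without LOW_3.

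**Figure D3:**
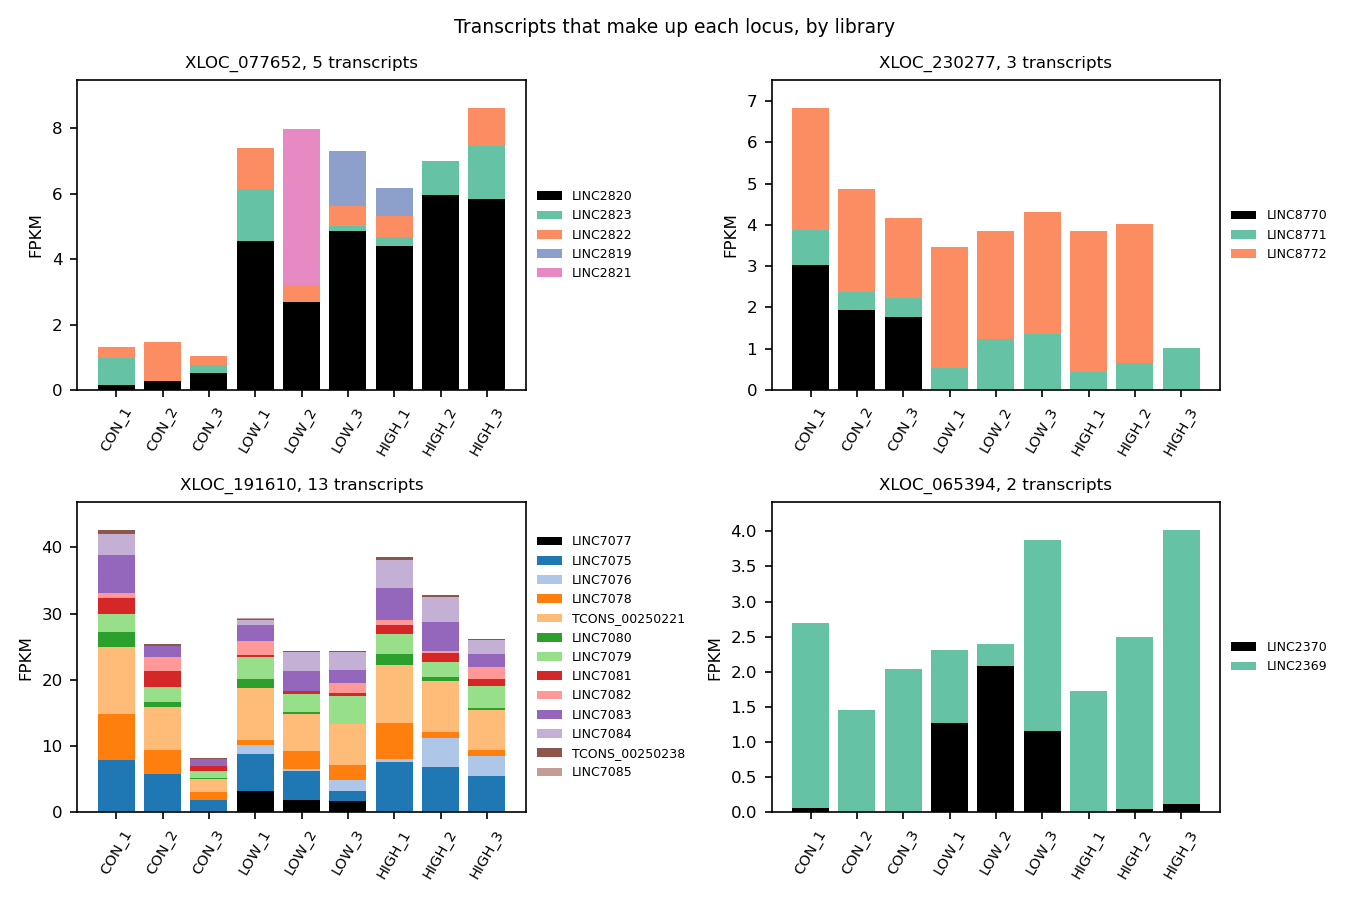
FPKM (y axis) of each locus in each library (x axis), stacked by transcript with the chosen transcript in black. XLOC_077652 is at 1.04 to 1.47 in CON and at 6.18 to 8.62 elsewhere, whereas at the other loci the black part differs between CON and LOW while the totals of these groups overlap.

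Across the 4 loci, 19 transcripts accompany the chosen ones, and 16 of these reached an FPKM of 0.1 in at least 3 libraries and were tested. None was called in any comparison, a call being an adjusted p under 0.05 together with a log2 fold change beyond 1 in either direction, where 0.0234% of all tested transcripts were called in LOW against CON, 0.0234% in HIGH against CON and 0.0261% in HIGH against LOW. At an unadjusted p under 0.05 limma gave 3 (LINC7076, LINC7079 and LINC7081), 2 (LINC7076 and LINC7084) and 1 (LINC7081) of the 16, against 2.78%, 6.06% and 6.62% of all tested transcripts. All the transcripts named here belong to XLOC_191610, which holds most of the 16, and the models of 1 locus are not independent of each other. Of these, LINC7076 met the filter only through libraries with glucose. In the comparisons with CON LINC7076 thus adds no support, here or in the overlap count and the median that follow. For 3, 1 and 1 of the 16 the libraries of one group lay wholly above those of the other, against 8.61%, 10.3% and 15.2%. The median difference of the 16 was 0.28, 0.47 and 0.44 on the log2 scale, beside 0.04, 0.12 and 0.07 over all transcripts tested. All of these differences are on the log2(FPKM + 0.1) scale, which understates the change of low transcripts. The sums of the loci without the chosen transcripts were not called in any comparison, where 0.0%, 0.00427% and 0.00427% of all genes were. At an unadjusted p under 0.05 the sums gave 1, 0 and 0 of 4, against 2.05%, 6.62% and 6.92% of genes. Groups stood wholly apart for 1, 0 and 1 of 4, the last being XLOC_191610, against 9.16%, 11.3% and 17.0% of genes. The sum that differed in LOW against CON was that of XLOC_077652, which rests on LINC2819 and LINC2821, listed at 0 in every CON library.

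**Figure D4:**
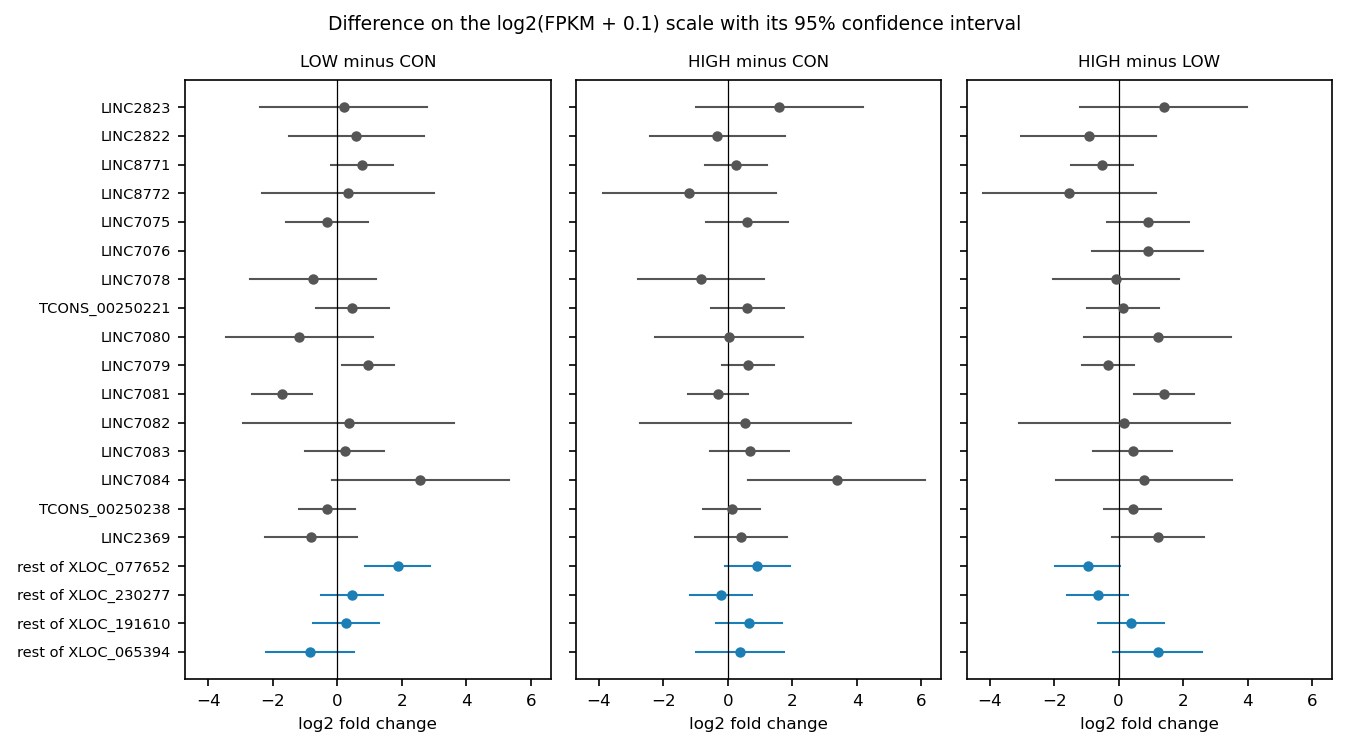
Differences between groups (x axis, log2(FPKM + 0.1) scale, 95% confidence interval as a line) for the 16 tested transcripts beside the chosen ones (grey) and for the sums of each locus without its chosen transcript (blue). LINC7076 is shown for HIGH minus LOW alone because it was listed at 0 in all CON libraries, and the interval of LINC7081 lies below 0 for LOW minus CON and above 0 for HIGH minus LOW.

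Named genes near the chosen transcripts were few. CLGN, which encodes the endoplasmic reticulum chaperone calmegin, lies 4.139 kb from LINC2820 and MGAT4D, a member of a glycosyltransferase family, 60.135 kb from it. CLGN did not exceed 0.103 FPKM in any library and MGAT4D was listed at 0 in all, so neither was tested. The nearest named gene beyond 100 kb on that chromosome was ELMOD2, which regulates small GTPases, at 119.223 kb. ELMOD2 stayed between 1.81 and 2.23 in all libraries and differed from CON by 0.02 ± 0.17 in LOW and -0.08 ± 0.17 in HIGH (log2, SE). No named gene lay on the scaffold of LINC8770.

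PCDH7, a protocadherin of the cell surface that mediates adhesion between cells, is the named gene whose span covers LINC7077, although LINC7077 is classed as intergenic. The coding model PCDH7-201 ends well before LINC7077, at 49848437. LINC7077 is covered by 5 other models assigned to the gene, the antisense lncRNAs PCDH7-AS1, PCDH7-AS3 and PCDH7-AS4 and the models TCONS_00256055 and TCONS_00256057. Gene-level FPKM of PCDH7 was 82.3, 67.6 and 49.5 in CON, 70.3, 66.3 and 65.9 in LOW, and 82.9, 82.7 and 71.5 in HIGH. Every HIGH library was above every LOW library, and CON overlapped both, with its highest value in CON_1 and its lowest in CON_3 as for XLOC_191610. The difference was 0.14 ± 0.15 for LOW against CON, 0.30 ± 0.15 for HIGH against CON and 0.16 ± 0.15 for HIGH against LOW (log2, SE). The unadjusted p values were 0.360, 0.0711 and 0.309, and PCDH7 was not called in any comparison, where 0.00427%, 0.00855% and 0.00427% of the 23394 genes were. PCDH7-AS1 was at 0.908, 1.13 and 0.894 in CON, 1.25, 1.16 and 1.05 in LOW, and 0.990, 0.980 and 1.67 in HIGH, and its groups overlapped. PCDH7-AS3 was at 0.223, 0.201 and 0 in CON, 0.00472, 0.306 and 0.00462 in LOW, and 0.570, 0.971 and 0.445 in HIGH. Its HIGH libraries lay above all the others, by 1.81 ± 0.66 against CON and 2.14 ± 0.66 against LOW (log2, SE), with unadjusted p of 0.0241 and 0.0110 and adjusted p of 0.759 and 0.657 in limma. PCDH7-AS4 differed by 1.42 ± 0.50 in HIGH against CON (unadjusted p = 0.0214, adjusted p = 0.759). TCONS_00256057 was listed in LOW_2 alone, at 0.882. None of the covering models that were tested was called. Whether reads of the 2 strands were told apart is not given in the sources used here, so reads of an antisense transcript and of a transcript that it overlaps cannot be told apart.

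For LINC2370 the nearest named gene was NCAM1, the neural cell adhesion molecule, at 102.96 kb. Its FPKM was 114, 88.4 and 136 in CON, 84.9, 82.7 and 75.1 in LOW, and 113, 111 and 82.6 in HIGH. LOW was below CON in all libraries, by 0.37 ± 0.18 (log2, SE, unadjusted p = 0.0698, adjusted p = 1), which did not pass. The highest control value rested on 1 short assembled model, TCONS_00082090, which was at 57.7 in CON_3 and at 0.693 to 3.37 in the other libraries. The main model, NCAM1-201, was at 110, 86.1 and 78.5 in CON, so that without the short model CON overlapped LOW.

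Beside the named genes, 11 unnamed assembled loci lay within 100 kb, 8 of them around LINC2370, 2 near LINC7077 and 1 on top of LINC2820. None of the 11 was called in any comparison, where 0.00427%, 0.00855% and 0.00427% of all genes were. At an unadjusted p under 0.05 limma gave 0, 1 and 1 of them, against 2.05%, 6.63% and 6.92% of all genes, and the groups stood wholly apart for 0, 0 and 1, against 9.16%, 11.3% and 17.0%. XLOC_074374, which overlaps LINC2820 and ends at the same base, was at 0, 0.321 and 0.190 in CON and at 0 in every LOW library, and it was listed in HIGH_3 alone of the HIGH group, at 0.223. It was thus not higher with glucose, unlike LINC2820. XLOC_061847, which covers LINC2370 whole, was at 15.8, 7.28 and 4.32 in CON, 7.65, 5.47 and 8.81 in LOW, and 18.8, 13.9 and 11.4 in HIGH. It was higher in HIGH than in LOW in all libraries, by 0.93 ± 0.39 (log2, SE, unadjusted p = 0.0386, adjusted p = 0.686), the reverse of the order of LINC2370.

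The loci around LINC2370 varied more among the control libraries than between groups. XLOC_061850 was at 9.97, 4.02 and 0.954 in CON, 5.11, 3.25 and 3.71 in LOW, and 9.58, 6.60 and 3.87 in HIGH. In 7 of the 8 loci CON_1 was the highest and CON_3 the lowest control library, and XLOC_191610, PCDH7, XLOC_191611 and XLOC_191612 had the same order. The 8 stromal markers were divided. COL1A1, COL1A2, PDGFRA and MYH11 had that order too, with the collagen gene COL1A1 at 35.1, 28.6 and 15.8 in CON. LUM, TAGLN and DCN had the reverse order, with TAGLN at 1507, 2007 and 2771, and ACTA2 was highest in CON_3. LINC2370 itself, at 0.0565 or less in CON, did not take part in the spread of the loci around it, and LINC2369 was lowest in CON_2. The part of this difference between control libraries in the results on XLOC_191610 was not tested.

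**Figure D5:**
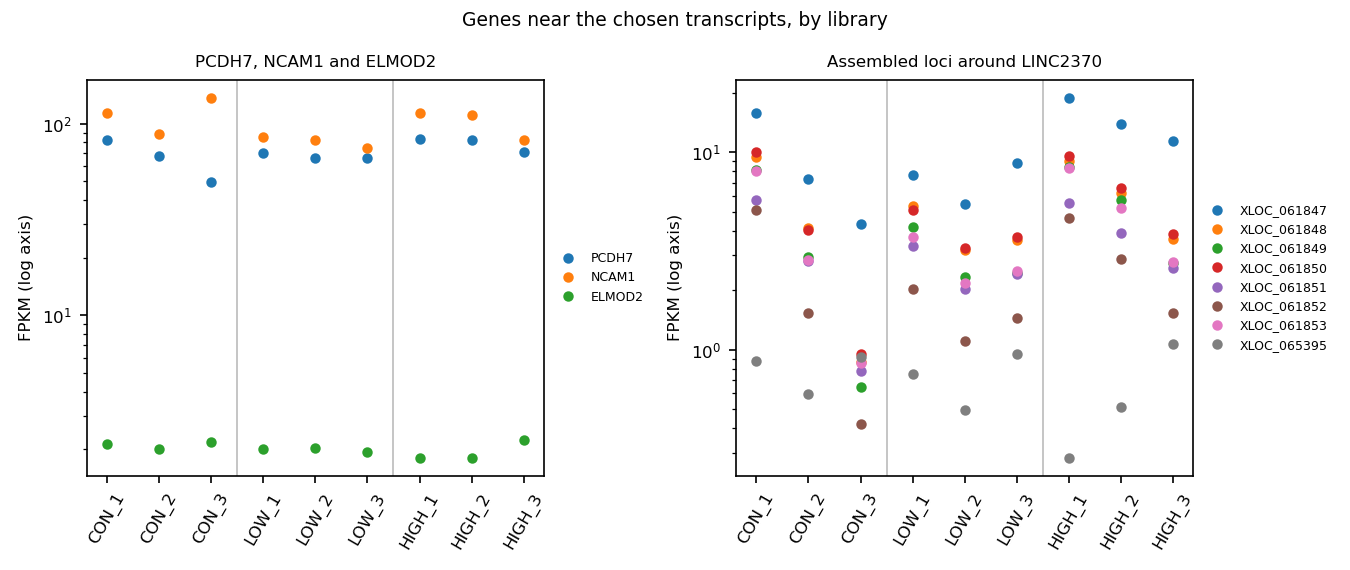
FPKM (log axis) of PCDH7, NCAM1 and ELMOD2 (left) and of the 8 unnamed assembled loci around LINC2370 (right) in each library. CON_1 and CON_3 bracket most of the range at the right, from 9.97 to 0.954 for XLOC_061850, and for none of these genes do the LOW libraries stand above all the others as they do for LINC2370.

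The transcripts of other genes whose profile over the 9 libraries was closest to each chosen one were found by the root mean square distance between centred log2(FPKM + 0.1) values. ZFP2-201, the transcript of a zinc finger gene on chromosome 5, was closest to LINC2820, at a distance of 0.419. Its FPKM was 0.220, 0.519 and 1.11 in CON, 4.86, 2.95 and 4.57 in LOW, and 3.87, 5.16 and 4.31 in HIGH. It too was lowest in CON_1 and, among the libraries with glucose, in LOW_2. The next were TCONS_00115349 on chromosome 19 (0.750) and LINC7076 of XLOC_191610 (0.781), which is itself one of the transcripts described above. For LINC8770 the closest were assembled models of HDGFL3 (0.712), HCFC1R1 (0.856) and ZNF800 (0.861), all of them at or near 0 with glucose.

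For LINC7077 the closest profile was that of TCONS_00298839, on the unplaced scaffold JH924684.1, at a distance of 0.268. It was at 0, 0 and 0.00583 in CON, 2.77, 2.14 and 1.99 in LOW, and 0.279, 0 and 0 in HIGH. In both, LOW_1 was the highest library and HIGH_1 the only HIGH library with a value. LINC2370 was the next (0.769), and TCONS_00133071 the third (0.965). For LINC2370 the closest were TCONS_00259137 (0.691), TCONS_00123979 (0.748) and LINC7077. These distances are a description, since the chosen transcripts and those close to them were picked on the same libraries.

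At the threshold by which the transcripts were chosen, LINC2370 was the last lncRNA inside it in LOW against CON, among 9891 lncRNA transcripts tested. The first outside it was MAGI2-AS1, an antisense lncRNA on chromosome 4 from 42632478 to 42689935. MAGI2-AS1 was at 0.435, 0.401 and 0.626 in CON, was listed at 0 in the LOW libraries, and was at 0.305, 0.351 and 0.275 in HIGH. Its LOW group thus stood apart from both others, as did that of LINC2370, with the opposite sign and at a lower level.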

How the data were processed

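Total RNA of 9 granulosa cell cultures was depleted of ribosomal RNA and sequenced as paired reads. The authors aligned reads with HISAT2, assembled transcripts with StringTie, removed models with coding potential, and counted with HTSeq 0.6.0; the submitters' processing notes also name TopHat2 and STAR 2.5.1b. The annotation and genome build are not given in the sources used here. The deposited values are FPKM per transcript and per gene. The deposited read count table was treated as a score, because it equals FPKM times span times a factor (within 3%), 1 per library for assembled and named features and another for Ensembl genes without a symbol, which were put on the common scale, so no count model was used and the number of reads behind a value is unknown.

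Libraries were scaled on the median of features with an FPKM of 1 or more in all libraries (factors 1.01 to 1.10 in CON, 0.940 to 0.985 in LOW, 0.965 to 1.05 in HIGH). Values printed are unscaled FPKM. Features of at least 300 bases that reached an FPKM of 0.1 in 3 libraries were tested on log2(FPKM + 0.1) with limma 3.58.1 in R 4.3.3, a mean-variance trend, all 9 libraries in 1 model, and Benjamini-Hochberg adjustment over 38384 transcripts or 23394 genes. A call needed an adjusted p under 0.05 and a log2 fold change beyond 1 in either direction. The p-values measure the spread between cultures of pooled cells, and whether these came from 1 pool is not stated. On simulated data for LOW against CON, 196 of 200 transcripts changed 4-fold were recovered, with 7 others called of 39428. The simulation used a dispersion of 0.05 and took the factors of the read count table as depth. It therefore does not give the power in these libraries. In these, TXNIP and ARRDC4 differed by 1.36 ± 0.16 and 1.16 ± 0.18 in LOW against CON (log2, SE). Neither was called, with adjusted p of 0.125 and 0.443 in limma.

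The members, gene lists and tests were chosen with earlier results of these data known. Named are all transcripts of the 4 loci, named genes within 100 kb (or the nearest), the transcripts at the threshold, and the 3 closest profiles. Other pseudocounts, filters, scalings, models, a replicate block and leaving out each library were tried.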

Additional observations from a re-analysis of the deposited data

How the results depend on the processing

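In 15 other fits (pseudocount 1, no filter or a filter at an FPKM of 1, no scaling, the 2 groups alone, a replicate block, and each library left out), none of the other transcripts of the 4 loci was called in 726 tests (lowest adjusted p 0.0571), none of the sums without the chosen transcript in 180 (0.188) and PCDH7 in none of 45 (0.188). The called count was 0 to 0 in all fits without 1 library. Neighbours within 50 or 10 kb, or measured from the whole locus, gave 0 calls as well. The difference of PCDH7 between LOW and CON turned from 0.14 to -0.022 without CON replicate 3, and was at most 0.269 without any other library. In the deposited read count table the mean share of LINC8770 in CON was 51.3% instead of 42.1%, and that of LINC7077 in LOW 3.54% instead of 8.53%, since that table weights transcripts by span. Without 1 library the mean share ranged from 41.0% to 43.3% for LINC8770 in CON and from 7.20% to 9.33% for LINC7077 in LOW, but from 15.4% (without CON replicate 3) to 35.1% for LINC2820 in CON, from 42.6% to 70.9% for LINC2370 in LOW, and from 0.884% to 2.41% for LINC2370 in HIGH. Other differences also moved by over 1.5 times, among them the following. Dropping CON_3 brought LINC7079 to 0.57 and NCAM1 to -0.19 in LOW against CON. In HIGH against CON it brought PCDH7 to 0.14 and XLOC_061847 to 0.48, whereas dropping CON_1 raised XLOC_061847 to 1.33. For the rest of XLOC_077652, dropping HIGH_3 or CON_3 gave 0.56 or 0.58 in HIGH against CON. Dropping HIGH_2 or LOW_2 gave -0.59 or -0.62 in HIGH against LOW. Pseudocount 1 brought LINC7081 to -0.92 and LINC2369 to -0.41 in LOW against CON, and LINC7084 to 1.44 in HIGH against CON. It also shrank the differences of LINC7076 from CON. Unscaled FPKM gave 0.052 for PCDH7 in LOW against CON.

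The choice of the 4 transcripts itself depended on the setting. All 4 passed in LOW against CON as fitted, 2 did in the model of those 2 groups alone, 1 with the filter at an FPKM of 1, and 0 without CON replicate 1 or without CON replicate 2. Whether replicate numbers pair the libraries was not settled. Deviations of same-numbered libraries correlated at -0.00676 to 0.254, and those of differently numbered libraries at -0.258 to 0.0579. With the replicate block, 0 of the other transcripts, 0 of the sums and 0 named neighbours were called, and 2 of the chosen transcripts (LINC7077 and LINC8770) passed in LOW against CON. A count model was not run, because the deposited table does not hold counted reads. With FPKM and no read numbers, an FPKM listed at 0 sets no upper limit on the level.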
